A study of Mus musculus with 48 samples.

Results

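The glucocorticoid receptor gene Nr3c1 and 9 genes known to respond to glucocorticoid hormone (Fkbp5, Sgk1, Tsc22d3, Zbtb16, Errfi1, Pdk4, Cdkn1a, Plin4 and Sult1a1) were followed in hippocampal RNA of young adult CD-1 mice, an outbred stock. The 10 genes were taken by name from a count table of 57126 gene identifiers, and all 10 were among the 16360 genes with enough reads to be tested. The table holds 48 libraries of mice aged 2 months, in 8 groups of 6: males and females whose mothers drank neither metal (control), or drank water with manganese (Mn, 2 g/L), water with lead (Pb, 100 ppm) or water with both metals (Pb+Mn). The dams were exposed from 2 weeks before mating until the pups were weaned at postnatal day 21, 8 weeks in all. Nothing in the labels says which libraries share a dam or at what hour the tissue was taken, and p-values therefore measure only the spread between these animals.

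Glucocorticoids (corticosterone in mice) are released from the adrenal gland in a daily rhythm and in response to stress. They enter cells, bind the receptor encoded by Nr3c1, and the receptor then moves to the nucleus and binds DNA at glucocorticoid response elements. The hippocampus is rich in this receptor and takes part in the feedback that limits further hormone release. Fkbp5 encodes a co-chaperone that lowers the receptor's affinity for hormone, a feedback on the response, and Tsc22d3 encodes the anti-inflammatory protein GILZ. Sgk1 encodes a kinase that acts on ion channels and transporters, Zbtb16 a zinc-finger repressor, Errfi1 an inhibitor of the EGF receptor, Cdkn1a the cell cycle inhibitor p21, Pdk4 a kinase that shuts off pyruvate dehydrogenase, Plin4 a lipid droplet coat protein and Sult1a1 a sulfotransferase for phenols.

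The 48 libraries held totals from 6.27 M to 27.6 M counts (M for mega), with a median of 15.1 M counts. Female control 3 stood apart, with the highest level of all 48 libraries for 8 of the 10 genes. The slope of expression on transcript length, used here as a sign of RNA quality, was lowest in male Pb 6 (-0.40), female Pb 2 (-0.36) and female control 1 (-0.28) and lay between -0.16 and 0.16 in the other 45 libraries. Results that rest on these animals are given with and without them. The tissue label was checked against markers: 13 markers of hippocampal neurons summed to between 6271 and 12711 CPM (counts-per-million) in every library, and 8 markers of the neighbouring thalamus and habenula to between 102 and 1032 CPM. Markers of choroid plexus, 10 genes, varied widely, from 178 to 10317 CPM.

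Levels per transcript length set the abundant genes apart from the rarer ones. On the scale of CPM per kilobase of the longest annotated transcript, the median over 48 libraries was 37.7 for Tsc22d3, 31.6 for Sgk1, 21.7 for Fkbp5, 20.1 for Errfi1, 13.8 for Nr3c1 and 13.3 for Zbtb16. The other 4 were low: 6.63 for Sult1a1, 5.81 for Pdk4, 4.78 for Cdkn1a and 1.64 for Plin4. Raw counts per library never reached 0, and the smallest were 25 for Plin4 and 34 for Cdkn1a.

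The genes differed in how far animals of one group lay apart. The SD between animals of a group, on the log2 CPM scale, was 0.22 for Nr3c1, 0.26 for Errfi1, 0.27 for Zbtb16, 0.34 for Fkbp5, 0.40 for Sult1a1, 0.41 for Pdk4, 0.45 for Tsc22d3, 0.49 for Sgk1, 0.68 for Cdkn1a and 0.76 for Plin4, beside a median of 0.28 over all genes tested. Plin4 ranged over 13.1-fold, from 3.46 CPM in male Pb 1 to 45.4 CPM in female control 3. Cdkn1a ranged over 9.37-fold, from 4.61 CPM in male Pb+Mn 1 to 43.2 CPM in female control 3. The receptor was the steadiest of the 10, with a 2.07-fold range from 56.0 CPM in female control 1 to 116 CPM in male Pb 1.

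**Figure D1:**
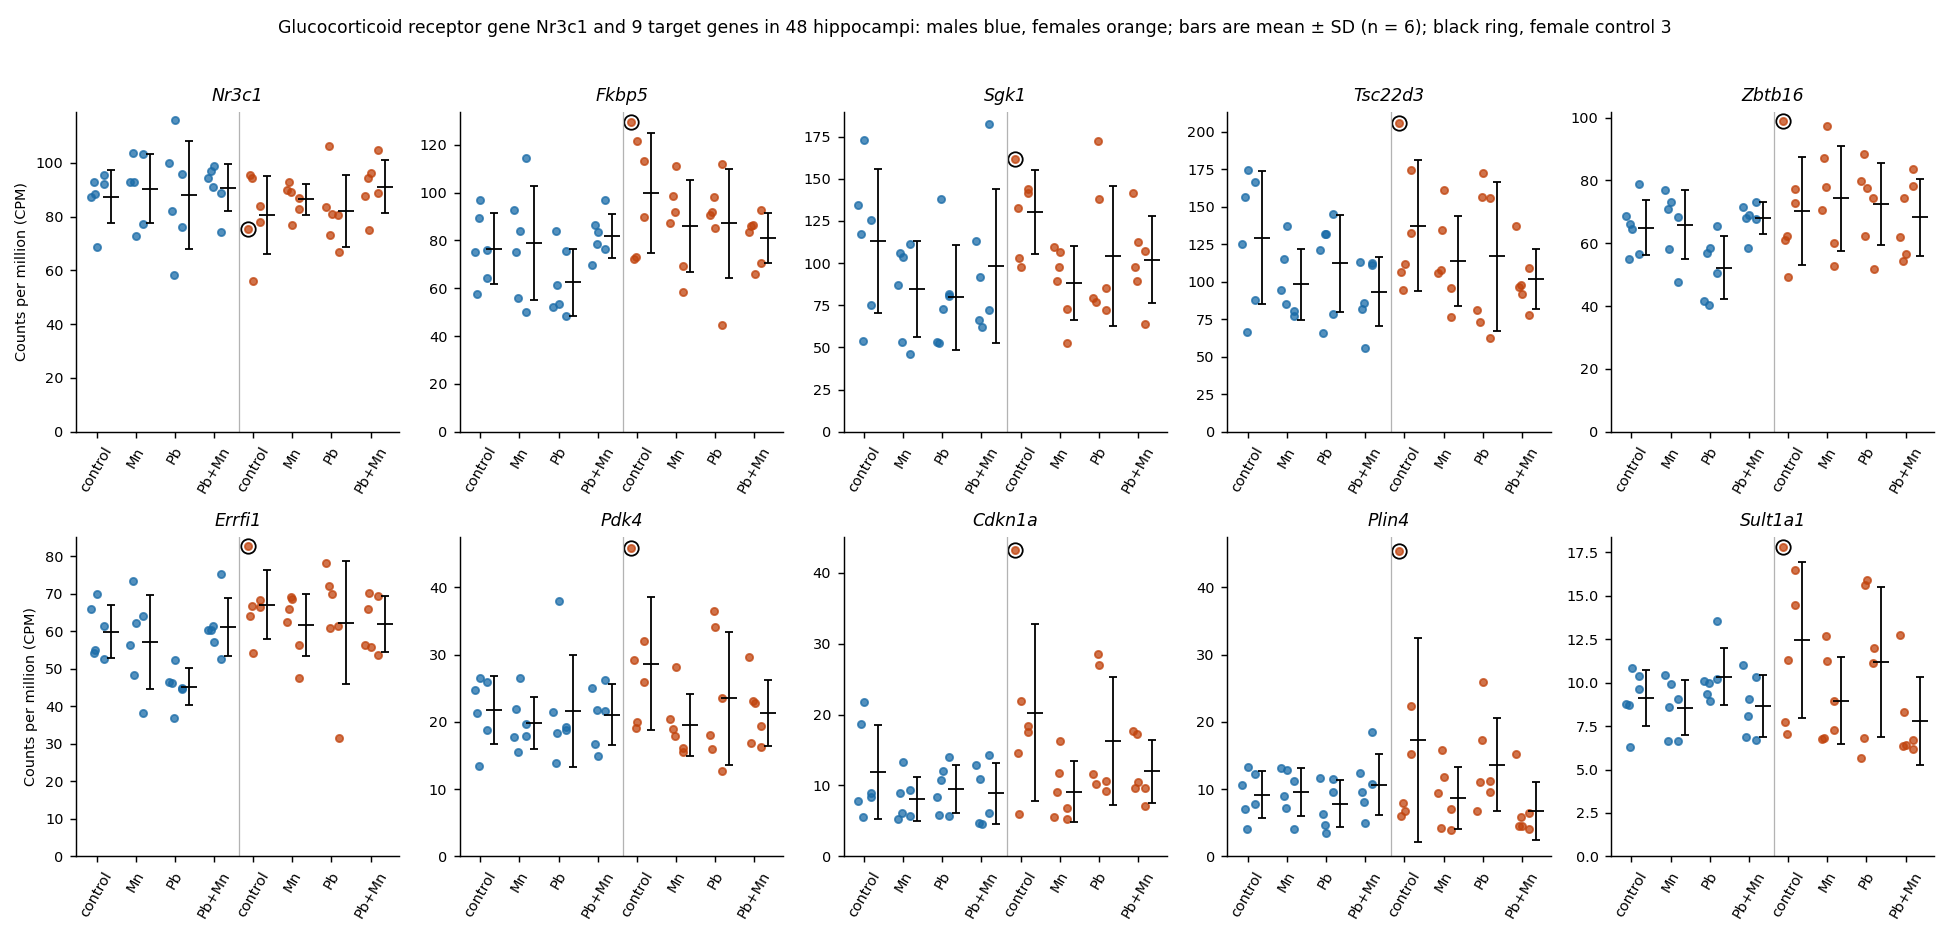
Level of each gene in CPM (vertical axes, from 0) in the 48 libraries, by sex and maternal exposure; points are animals, bars the mean and SD of 6 animals, and the black ring marks female control 3. The ringed animal is the highest of all 48 for 8 of 10 genes, and Errfi1 of Pb males does not overlap with control or Pb+Mn males.

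Promoter sequence was examined because the 10 genes were grouped by a shared receptor. RefSeq promoters (build GRCm38.p6) were on hand for 8 of the 10 genes, with 17 start sites, and the 250 bases before each start were searched on both strands. The letters sought were those of a full response element, GNACA, 3 unspecified bases, then TGTNC, where N is any base. Only 1 of the 17 promoters held it, at 1 of 6 Sgk1 start sites, against 0.387% of all 32851 promoters. The half-site AGAACA, sought on both strands, was found in 5 of the 17 promoters, of Sgk1, Tsc22d3 and Sult1a1, against 16.1% of all promoters. Among 25 promoters of 21 other glucocorticoid-responsive genes, 3 held the full element, 2 overlapping ones of Fam107a and that of Mt1, and 3 (12%) held the half-site. A match is a run of letters and not a measured binding site, and a missing match says only that these letters are not in this window. Nr3c1 and Zbtb16 were not matched. The stretches are printed to show the matched letters, in capitals, in 3 genes with the full element and in Tsc22d3 with the half-site, which lies there on the opposite strand. Those of Sgk1 (chr10:21993658-21993757, plus strand, element 188 to 176 bases before the start) and Fam107a (chr14:8309842-8309941, minus strand, 118 to 106 bases before) are joined by Mt1 (chr8:94178951-94179050, plus strand, 94 to 82 bases before) and Tsc22d3 (chrX:140600655-140600754, minus strand, 185 to 180 bases before).
Sgk1: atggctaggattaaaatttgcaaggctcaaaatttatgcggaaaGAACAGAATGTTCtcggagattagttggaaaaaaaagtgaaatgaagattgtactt
Fam107a: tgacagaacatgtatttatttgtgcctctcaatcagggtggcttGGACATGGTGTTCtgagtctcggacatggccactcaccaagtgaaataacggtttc
Mt1: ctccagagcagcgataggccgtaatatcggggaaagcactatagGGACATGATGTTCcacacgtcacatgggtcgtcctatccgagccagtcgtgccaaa
Tsc22d3: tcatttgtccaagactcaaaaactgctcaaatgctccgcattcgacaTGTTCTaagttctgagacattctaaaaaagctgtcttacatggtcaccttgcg

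The receptor gene itself had similar means in all 8 groups. Its group means ran from 80.6 ± 14.6 CPM (SD, n = 6) in female controls to 91.1 ± 9.94 CPM (SD, n = 6) in Pb+Mn females, and the 6 groups between them lay within that span. In none of the 19 comparisons made (each exposure against control, both metals against 1, the Pb by Mn interaction, sex, and sex by exposure) did Nr3c1 pass an unadjusted p of 0.05 by edgeR's quasi-likelihood test. The log2 difference closest to it was that of Pb+Mn females, at 0.18 ± 0.12 (SE).

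None of the 10 genes passed the threshold in any of the 19 comparisons (Benjamini-Hochberg adjusted p under 0.05 over all genes tested, edgeR quasi-likelihood test), nor did any with DESeq2 or limma voom. For 18 of these comparisons the background was the same, with 0% of the 16360 genes past the threshold. The exception was females against males over the 4 exposure groups, where 0.104% of genes passed. For these 10 genes the groups that were compared were thus not told apart by this test. Pb was not set against Mn, nor were single groups set against each other between the sexes. What follows describes sizes and directions with their errors. The number of genes at an unadjusted p under 0.05 is given beside the share of all genes tested that met the same mark.

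In females, levels of the target genes were highest in the controls for 8 of 9 targets, the exception being Zbtb16, whose highest mean was that of Mn females. Control females and Mn females gave the widest gap for Cdkn1a. Its lowest, median and highest levels were 5.98, 17.97 and 43.2 CPM in controls and 5.28, 7.92 and 16.3 CPM in Mn females. The log2 difference was -1.14 ± 0.37 (SE), with an unadjusted p of 0.0039 and an adjusted p of 1 by edgeR. All 6 Mn females lay below the control mean, and the groups overlapped. Plin4 went the same way, with 5.99, 11.6 and 45.4 CPM in controls against 3.85, 8.22 and 15.8 CPM in Mn females and a log2 difference of -0.97 ± 0.40 (SE). For Pdk4 the 3 values were 19.0, 27.6 and 45.9 CPM in controls and 15.6, 18.4 and 28.1 CPM in Mn females, a log2 difference of -0.55 ± 0.23 (SE). Sgk1 differed by -0.56 ± 0.27 (SE) and Sult1a1 by -0.49 ± 0.22 (SE) on the log2 scale. In all, 5 of the 10 genes were lower at an unadjusted p under 0.05, against 2.62% of all genes in either direction. The median log2 difference of the 9 targets was -0.49, with 8 of 9 below 0, and that of all genes was -0.00088. Markers of other cells also differed here: all 10 oligodendrocyte markers were lower in Mn females, 5 of them at an unadjusted p under 0.05, with a median of -0.36, and all 8 thalamus and habenula markers were lower, with a median of -0.69. The summed level of the oligodendrocyte markers ran from 4620 to 11025 CPM in Mn females and from 7958 to 11838 CPM in controls. Their part in the result was not tested. Fkbp5 (-0.21), Tsc22d3 (-0.28), Errfi1 (-0.12) and Zbtb16 (0.08) lay within 1.5 SE of 0.

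Pb+Mn females, set against the same 6 controls, had the lowest Plin4 and Sult1a1 of any group. Plin4 had a lowest, median and highest level of 4.00, 5.19 and 15.3 CPM, with a log2 difference of -1.37 ± 0.42 (SE) from controls and an unadjusted p of 0.0019. Sult1a1 had 6.21, 6.57 and 12.7 CPM against 7.06, 12.9 and 17.8 CPM in controls, a log2 difference of -0.71 ± 0.22 (SE) with an unadjusted p of 0.0027. Pb+Mn female 3 was the highest of its group for both genes, and the other 5 animals lay at or under 8.34 CPM for Sult1a1. Cdkn1a was lower by an unadjusted p of 0.045, with a log2 difference of -0.76 ± 0.37 (SE). These 3 genes were the only members under an unadjusted 0.05, against 1.64% of all genes. All 9 targets lay below 0, with a median of -0.43. All 10 choroid plexus markers were higher in Pb+Mn females, with a median of 0.80 and summed levels of 349.99 to 7005 CPM against 351 to 3757 CPM in controls, and their part was not tested. Pb females differed least from controls: no member met the unadjusted mark, against 2.18% of all genes, and the median of the 9 targets was -0.23.

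These values depended in part on female control 3. Without that animal the median of the 9 targets moved from -0.49 to -0.37 for Mn, from -0.43 to -0.30 for Pb+Mn and from -0.23 to -0.058 for Pb. The unadjusted calls shrank from 5 genes to 1 for Mn (Cdkn1a, -0.78, unadjusted p of 0.039) and from 3 to 2 for Pb+Mn (Plin4, -0.88, unadjusted p of 0.032, and Sult1a1, -0.61, unadjusted p of 0.0099), all by edgeR. The count for Mn was 3 without each in turn of female controls 2 and 4 and Mn females 2, 4 and 5. That for Pb+Mn was 6 without female control 6 and 5 without Pb+Mn female 3. In the Pb comparison Cdkn1a moved from -0.31 to 0.05 and Plin4 from -0.34 to 0.19. With group means removed, female control 3 ranked 3 of 48 for the mean of 22 other glucocorticoid-responsive genes, 2 of 48 for 10 clock genes and last of 48 for 8 meningeal markers. It ranked 8 of 48 for astrocyte markers and 13 of 48 for hippocampal neuron markers. The part of these markers in its levels was not tested.

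**Figure D2:**
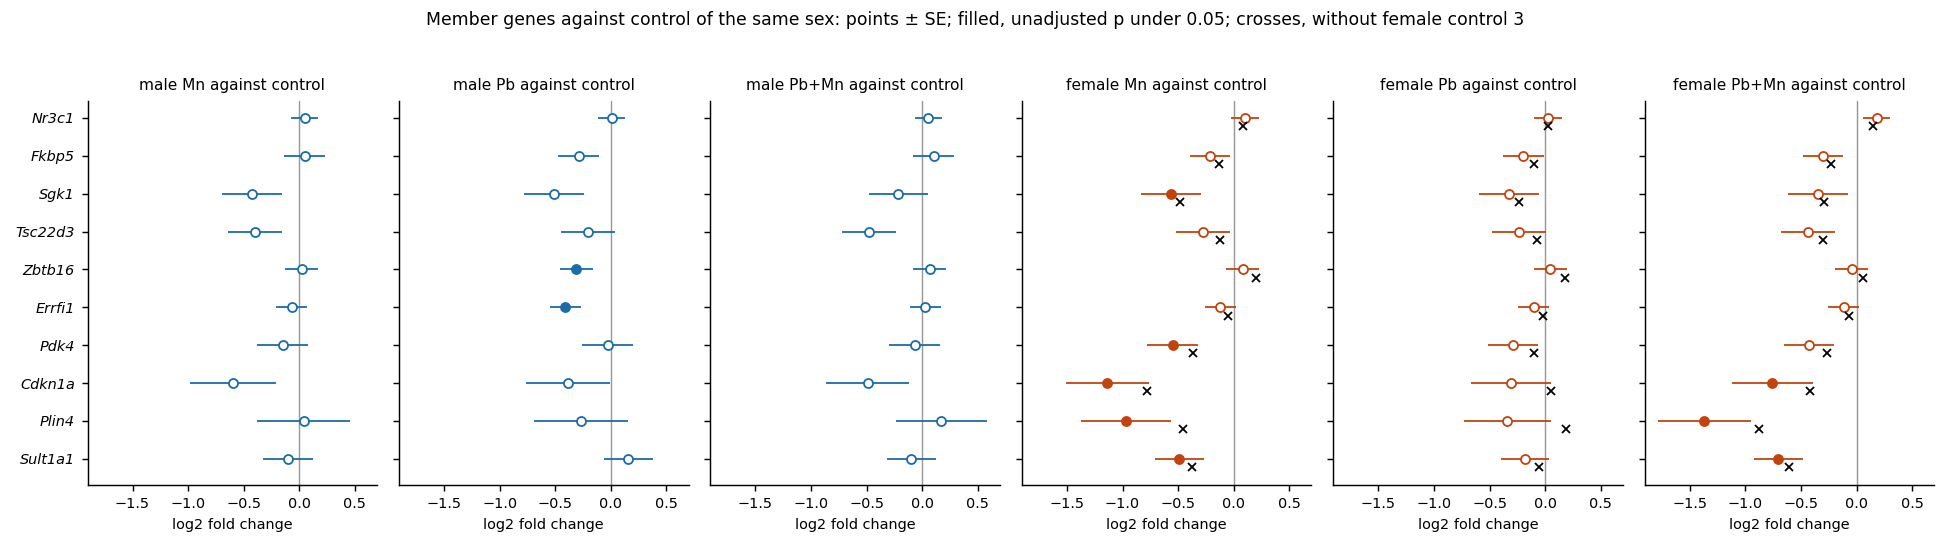
Log2 fold change of each gene against control animals of the same sex (horizontal axes), with SE, for the 3 exposures in males (blue) and females (orange); filled points have an unadjusted p under 0.05, and crosses are values without female control 3. In females most targets lie left of 0, by a median of -0.49 for Mn and -0.43 for Pb+Mn, and most crosses lie to the right of their points.

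In males, the lead group had the lowest Errfi1, Zbtb16, Fkbp5 and Sgk1 of the 8 groups. Errfi1 ranged from 36.8 to 52.3 CPM (median 45.5) in Pb males and from 52.7 to 69.8 CPM (median 58.3) in control males, so these groups did not overlap, as was the case for 0.202% of all genes and for none of the other members. The log2 difference was -0.41 ± 0.14 (SE), with an unadjusted p of 0.0056 and an adjusted p of 0.34. Zbtb16 was 40.4, 53.8 and 65.4 CPM (lowest, median, highest) against 55.0, 65.2 and 78.9 CPM in controls, a log2 difference of -0.31 ± 0.15 (SE). Errfi1 and Zbtb16 were the 2 members at an unadjusted p under 0.05, against 12.5% of all genes. The count was 1 without each in turn of male controls 1 and 3 and Pb males 3 and 4. Sgk1 was at -0.51 ± 0.27 and Fkbp5 at -0.29 ± 0.18, while Tsc22d3, Pdk4 and Sult1a1 had log2 differences of -0.21, -0.03 and 0.16 with SEs of 0.22 to 0.24. The median of the 9 targets was -0.29, and -0.16 without male control 1. Pb males also had the lowest mean length slope (-0.10 ± 0.16, SD, n = 6, against 0.0014 ± 0.077 in control males). With that slope as a covariate the difference of Errfi1 was -0.28 and that of Zbtb16 -0.17, and without male Pb 6 they were -0.34 and -0.24. In the same order, Sgk1 was -0.61 and -0.73 in these fits, with unadjusted p of 0.035 and 0.010 by edgeR. Errfi1 kept the unadjusted mark in both (0.023 and 0.021), and Zbtb16 lost it in both (0.175 and 0.12). Choroid plexus markers were higher in Pb males than in controls for 10 of 10 (median 0.61) and thalamus and habenula markers lower for 8 of 8 (median -0.46). Hippocampal neuron markers were higher for 4 of 13 (median -0.13), with 1 higher and 2 lower at an unadjusted p under 0.05. All 5 tested blood markers were higher (median 1.36), 3 of them at that mark. Meningeal markers were higher for 2 of 8 (median -0.50), and 3 were lower at that mark. The part of these markers was not tested.

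Set against the same 6 Pb males, Pb+Mn males had higher values of these genes. Errfi1 had a range of 52.5 to 75.3 CPM in Pb+Mn males, above all 6 Pb males, and 0.972% of all genes separated these groups. It had a log2 difference from them of 0.44 ± 0.14 (SE) with an adjusted p of 0.093 by edgeR. Fkbp5 (0.39 ± 0.18) and Zbtb16 (0.38 ± 0.15) were also higher at an unadjusted p under 0.05, and 23.8% of all genes met that mark. The share of members, 3 of 10, was close to that background. Hippocampal neuron markers were higher in Pb+Mn males for 12 of 13, 5 of them at an unadjusted p under 0.05, with a median of 0.28. Their summed level ran from 9288 to 10468 CPM in Pb+Mn males and from 6537 to 12143 CPM in Pb males. Meningeal markers were higher for 7 of 8, with a median of 0.48, and the part of both lists was not tested. With the length slope as a covariate the 3 values were 0.24, 0.26 and 0.17 and none kept an unadjusted p under 0.05. At 0.05, Errfi1 passed the adjusted threshold in 1 of the settings tried, the edgeR fit without female Pb 2 (adjusted p of 0.020), in which 1390 genes passed in place of 0. The Pb by Mn interaction in males was 0.51 ± 0.20 (SE) for Errfi1, its only member at an unadjusted p under 0.05, against 13.7% of all genes. That count was 2 without each in turn of male controls 2 and 6, Mn male 4, Pb male 6 and Pb+Mn males 1 and 5.

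The remaining contrasts within a sex held few members at the unadjusted mark. Mn males and Pb+Mn males had 0 of 10, against 2.25% and 2.93% of all genes, although Cdkn1a was at -0.60 ± 0.38 and -0.49 ± 0.38 and Tsc22d3 at -0.40 ± 0.24 and -0.48 ± 0.24 (log2, SE). For Mn males the count was 2 without male control 6 and 1 without Mn male 1. For Pb+Mn males it was 1 without each in turn of male controls 2 and 6 and Pb males 2 and 5. It was also 1 without each in turn of Pb+Mn males 2, 3 and 4 and female control 3. The same held for Mn female 1, Pb females 3 and 4 and Pb+Mn female 4. Pb+Mn against Mn males also had 0 of 10, against 4.03%. In females, Pb+Mn against Pb had 2 of 10 (Plin4 -1.03 ± 0.42, Sult1a1 -0.52 ± 0.22), against 3.83% of all genes, or 0 without Pb female 1 and 1 without Pb female 6. Pb+Mn against Mn and the interaction had 0 of 10, against 2.55% and 3.09%.

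Pooling the sexes placed 8 or 9 of the 9 targets below control for each exposure. In males alone 6, 8 and 5 of the 9 lay below control for Mn, Pb and Pb+Mn, with medians of -0.10, -0.29 and -0.07. In females alone 8, 8 and 9 did, with medians of -0.49, -0.23 and -0.43. For Mn the members lower at an unadjusted p under 0.05 were Cdkn1a (-0.87 ± 0.27), Sgk1 (-0.49 ± 0.19) and Pdk4 (-0.35 ± 0.16), 3 of 10 against 4.55% of all genes. For Pb they were Sgk1 (-0.42 ± 0.19) and Errfi1 (-0.26 ± 0.10), 2 of 10 against 11.5%. For Pb+Mn they were Cdkn1a (-0.62 ± 0.26), Plin4 (-0.60 ± 0.29), Tsc22d3 (-0.46 ± 0.17) and Sult1a1 (-0.40 ± 0.16), 4 of 10 against 4.58%. The medians of the 9 targets were -0.34, -0.24 and -0.28, beside medians of all genes between -0.0051 and -0.0014, and they were -0.24, -0.14 and -0.26 without female control 3. The counts moved with single libraries. That for Pb+Mn was 2 without female control 3 or without male control 1. That for Mn was 5 without each in turn of male control 6, female controls 5 and 6 and Mn female 1. That for Pb was 1 without each in turn of male controls 1 and 3, Pb male 3 and female controls 3 and 4. It was also 1 without each in turn of Pb females 2, 3 and 5. The 3 comparisons share the 12 control animals.

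Females had higher levels than males for all 9 targets over the 4 exposure groups, by log2 differences of 0.12 to 0.53 and a median of 0.19. The 4 genes at an unadjusted p under 0.05 were Cdkn1a (0.53 ± 0.19), Fkbp5 (0.24 ± 0.09), Zbtb16 (0.19 ± 0.07) and Errfi1 (0.19 ± 0.07), against 7.45% of all genes, and their adjusted p was 0.66 by edgeR. Leaving out female control 3 gave a median of 0.16 with the same count of 4. Cell type markers differed between the sexes too: hippocampal neuron markers were higher in females for 11 of 13, 4 of them at an unadjusted p under 0.05, with a median of 0.12. Choroid plexus markers were lower for 10 of 10, 5 of them at that mark, with a median of -0.74, and all 10 endothelial markers were lower, with a median of -0.07. The part of these markers in the result was not tested. The difference between the sexes in the response to exposure was tested by interaction terms. Only Plin4 met the unadjusted mark, for Pb+Mn (-1.54 ± 0.58, unadjusted p of 0.011 by edgeR), against 0.789% of all genes, and it was -1.03 with an unadjusted p of 0.062 without female control 3. No member met it for Mn (0.954% of all genes) or Pb (2.07%), although without female control 3 Zbtb16 met it for Pb (0.49). The count for Pb was also 1 without Pb male 2 and 2 without Pb female 2. That for Mn was 1 without each in turn of female controls 1 and 5 and Mn female 6. The count for Pb+Mn was 2 without each in turn of male control 1, Pb+Mn males 2 and 5 and female controls 5 and 6. It was also 2 without Pb female 3 or without Pb+Mn female 3.

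Animals of the same group were then compared with each other, to see which genes varied together. Each group's mean was subtracted from log2 CPM, and the 45 pairs of genes were correlated over the 48 animals. The median r of the 36 pairs of targets was 0.44, while the median over all 133816620 pairs of tested genes was -0.0012. Of the 45 pairs, 25 passed an adjusted p of 0.05 (two-sided permutation within groups, 100000 resamples, adjusted over the 45 pairs), 22 of them positive. Over all pairs of tested genes the 5th and 95th percentiles of r were -0.52 and 0.53, and 6.13% had r over 0.5. Single values between those percentiles are thus common here. The permutation test was not run on all pairs, so the count of 25 has no background share beside it.

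After the correlations were seen, 6 targets could be set together: Sgk1, Tsc22d3, Pdk4, Cdkn1a, Plin4 and Sult1a1. Their 15 pairs had r between 0.50 and 0.79 (Spearman's rho 0.478 to 0.785), and each pair was positive in 7 or 8 of the 8 groups taken alone. The highest was that of Tsc22d3 and Pdk4, with r = 0.79 and rho = 0.785 over 48 animals, a permutation p of 1e-05 for both (the smallest that the resamples can give) and an adjusted p of 5e-05. It was 0.75 without the 2 animals farthest from the median of Tsc22d3. Plin4 and Sult1a1, both of low abundance, had r = 0.73 and rho = 0.72. Ranked by r among the 16359 other genes tested, Tsc22d3 was the gene most like Pdk4 and Sult1a1 the gene most like Plin4, and each of the other 4 members of the 6 stood within the first 68 for Pdk4. In males alone the 15 pairs had r between 0.29 and 0.76, in females alone between 0.56 and 0.82, and without female control 3 between 0.45 and 0.78.

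The other 3 targets, Fkbp5, Zbtb16 and Errfi1, formed a second set with r between 0.60 and 0.69 (rho 0.53 to 0.65). Zbtb16 and Errfi1 had r = 0.69, Fkbp5 and Errfi1 0.64, and Fkbp5 and Zbtb16 0.60, with adjusted p of 5e-05, 0.0010 and 0.00048. Without the 2 animals farthest from the median of Fkbp5 (female Pb 2 and male Mn 2) the r of Fkbp5 and Errfi1 was 0.46. Between the sets the 18 pairs had a median r of 0.20, and 4 passed the adjusted threshold, or 1 without female control 3. Fkbp5 and Tsc22d3, both widely used as readouts of the hormone's action, had r = -0.07 and rho = -0.02.

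**Figure D3:**
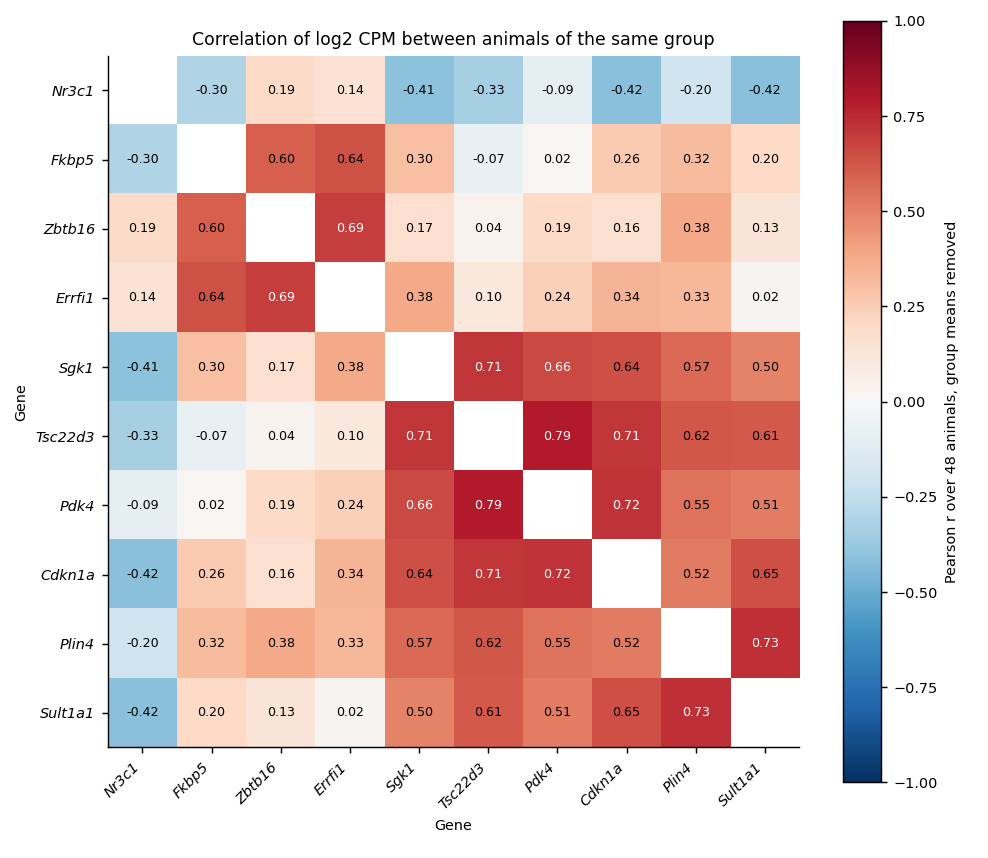
Pearson r of log2 CPM, group means removed, between each pair of the 10 genes over 48 animals (colour from -1 to 1, values printed). The 6 genes at the lower right have r of 0.50 to 0.79 with each other, Fkbp5, Zbtb16 and Errfi1 have 0.60 to 0.69, and Nr3c1 is negative with 7 of 9 targets.

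Markers of tissue makeup and RNA quality moved with the second set, as did genes of the receptor's partners. Fkbp5 varied with the mean of 13 hippocampal neuron markers (r = 0.82, rho = 0.81, permutation p = 1e-05, the smallest possible, adjusted p = 0.00024 over 170 relations between the genes and list means). It varied against that of 8 thalamus and habenula markers (r = -0.59, rho = -0.63, permutation p = 7e-05, adjusted p = 0.00085). Zbtb16 (r = 0.61, rho = 0.60) and Errfi1 (r = 0.52, rho = 0.48) also varied with the hippocampal neuron markers, with adjusted permutation p of 0.00024 and 0.0089. The length slope went with Zbtb16 (r = 0.63, rho = 0.56) and Errfi1 (r = 0.60, rho = 0.41), with adjusted permutation p of 0.00071 and 0.0051. Without the 2 animals farthest from the median, the r of Fkbp5 with the neuron markers was 0.78 and that of Errfi1 with the length slope 0.39. Among the 6 genes of the first set, none passed the adjusted threshold against any of 10 lists of cell type markers or the length slope, in the same family. Tsc22d3 came near it with the oligodendrocyte markers (r = 0.42, adjusted permutation p of 0.058). That r was 0.55 without the 2 animals farthest from the median of these markers. With the hippocampal neuron markers its r was -0.36. When the mean of the hippocampal neuron markers was removed from each gene, the 15 pairs of the first set kept r between 0.50 and 0.80, while Fkbp5, Zbtb16 and Errfi1 had 0.23 to 0.55. The r of Fkbp5 and Tsc22d3 was then 0.43 (adjusted permutation p of 0.013), and 13 of the 18 pairs between the sets passed in place of 4. Removing the length slope instead also gave 13 of 18. In bulk tissue, fewer cells of a type and less RNA per cell cannot be told apart.

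**Figure D4:**
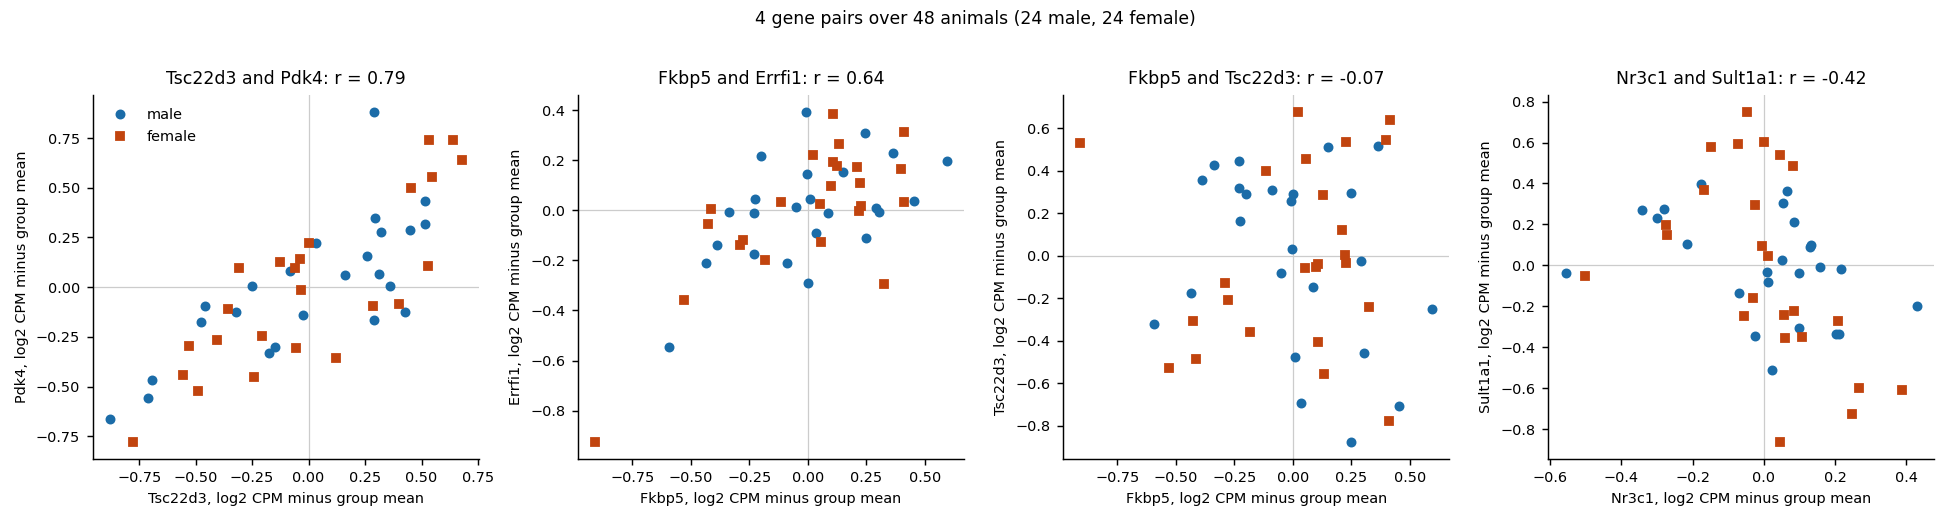
Log2 CPM minus the group mean for 4 pairs of genes in 48 animals (circles male, squares female). Tsc22d3 and Pdk4 rise together (r = 0.79), Fkbp5 and Errfi1 also do, with female Pb 2 at the lower left (r = 0.64), Fkbp5 and Tsc22d3 have r = -0.07, and Sult1a1 falls as Nr3c1 rises (r = -0.42).

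To set the covariation against the whole transcriptome, every gene was fitted on the centred log2 CPM of 1 gene with a term for each group. Fitted on Tsc22d3, which was chosen after the correlations were seen, 10.3% of the 16359 other genes passed (5.35% with a positive and 4.92% with a negative slope). Of the 9 other members 5 passed, all positive: Cdkn1a (slope 1.15 ± 0.16, SE, log2 per log2), Plin4 (1.08 ± 0.20), Sgk1 (0.79 ± 0.12), Pdk4 (0.73 ± 0.09) and Sult1a1 (0.53 ± 0.11), with adjusted p between 7.9e-07 and 0.0054 by edgeR. They stood at ranks 7, 24, 12, 4 and 41 of 16359 by p. Among the marker lists, 4 of 10 oligodendrocyte markers passed with a positive slope on Tsc22d3 and 3 of 13 hippocampal neuron markers with a negative one. The count of all genes following Tsc22d3 (1681) shifted between settings, from 59 with the length slope as a covariate to 3641 without female Mn 2, but the same count of 5 members passed in each setting tried. With the length slope as a covariate those 5 were among 59 genes, 0.361% of the total.

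Fitted on Fkbp5, 36.4% of genes passed (17.4% positive and 19% negative), and 3 of 9 members did: Zbtb16 (0.49 ± 0.10), Errfi1 (0.47 ± 0.10) and Plin4 (0.82 ± 0.33). Plin4 passed narrowly, with an adjusted p of 0.045 by edgeR. Its slope was 0.56 without female control 3 (adjusted p of 0.16) and 0.95 without female Pb 2 (adjusted p of 0.072). With the length slope as a covariate it was 0.83 (adjusted p of 0.081). Zbtb16 and Errfi1 passed in these settings too. A share of 3 in 9 is close to that background. By r with Fkbp5, Errfi1 ranked 535 and Zbtb16 716 of 16359, and Tsc22d3 8487. The 10 genes most like Fkbp5 were Wipf3 (r = 0.91), Lingo3, Arhgap39, Neurod2, Chst1, Rara, Lingo1, Brinp1, Susd4 and Inf2 (0.86), of which Neurod2 is a transcription factor of excitatory neurons. Among the marker lists, 10 of 13 hippocampal neuron markers passed with a positive slope on Fkbp5 and 7 of 8 thalamus and habenula markers with a negative one.

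Other glucocorticoid-responsive genes were fitted in the same way. Of 22 tested genes of this kind outside the 10, 13 passed with a positive slope on Tsc22d3 and 0 with a negative one, against 5.35% of all genes positive. On Fkbp5, 7 of the 22 passed with a positive and 1 with a negative slope, against 17.4% of all genes positive. Klf15, a transcription factor of amino acid and lipid metabolism, was first of all 16359 genes (slope 0.61 ± 0.05, r = 0.91). Others were Nfkbia, the inhibitor of NF-kappa-B (0.60 ± 0.07), the connexin gene Gjb6 (0.48 ± 0.07), Ddit4, an inhibitor of mTOR (0.43 ± 0.07), the arrestin-like gene Arrdc2 (0.72 ± 0.12), the metallothioneins Mt2 (0.76 ± 0.14) and Mt1 (0.50 ± 0.11), and Mfsd2a, the blood-brain barrier lipid transporter (0.44 ± 0.09). Fam107a, whose promoter is printed above, also followed (0.47 ± 0.12). Klf9 and Bcl6 had r of 0.78 and 0.66 with Fkbp5 and of -0.12 and -0.11 with Tsc22d3. Of 11 immediate early genes and of 10 clock genes, 0 followed Tsc22d3. The genes most like the mean of the 9 targets were Klf15 and Arrdc2 (r = 0.80 for both), Mfsd2a, Plekhf1, Fam83d, Rhou, Mertk, Gpt2, Slc2a1 and Adipor2 (0.70), of which Klf15, Arrdc2, Mfsd2a and Mertk belong to the list of 22.

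**Figure D5:**
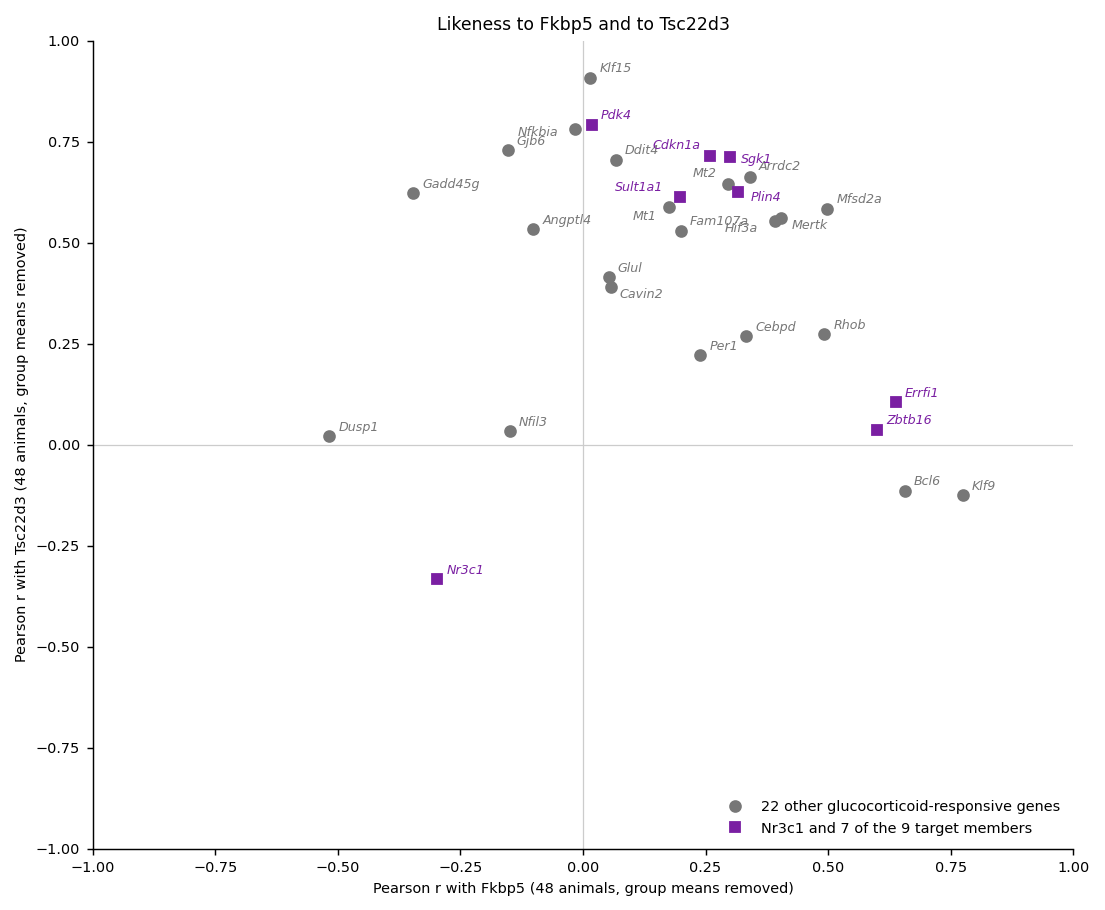
Pearson r with Fkbp5 (horizontal) and with Tsc22d3 (vertical) over 48 animals, group means removed, for Nr3c1 and the 7 remaining targets (squares) and 22 other glucocorticoid-responsive genes (circles). Pdk4, Cdkn1a, Sgk1, Plin4 and Sult1a1 lie with Klf15 (r = 0.91 with Tsc22d3) high on the vertical axis, while Zbtb16 and Errfi1 lie with Klf9 and Bcl6 at the right.

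Animals with more receptor mRNA had less of several targets. Nr3c1 was negatively correlated with 7 of the 9 targets, and 3 pairs passed the adjusted threshold: Cdkn1a (r = -0.42, rho = -0.37, adjusted p = 0.013), Sult1a1 (r = -0.42, rho = -0.48, adjusted p = 0.013) and Sgk1 (r = -0.41, rho = -0.40, adjusted p = 0.013), all by permutation. Without male Pb 6 and female control 1, the animals farthest from the median of Nr3c1, r was -0.44, -0.52 and -0.43. Cdkn1a, Sult1a1 and Tsc22d3 were negative with Nr3c1 in 8 of 8 groups taken alone. In males alone r with Nr3c1 was -0.41 for Cdkn1a, -0.39 for Sult1a1 and -0.59 for Sgk1. In females alone it was -0.43, -0.48 and -0.13. Of these only Sgk1 in males passed (adjusted permutation p of 0.018). The slopes on Nr3c1 passed for Sgk1 (-0.99 ± 0.30), Cdkn1a (-1.30 ± 0.43) and Sult1a1 (-0.71 ± 0.26), 3 of 9, and 35.8% of all genes passed (16.3% positive, 19.4% negative), a share like that of the members. Nr3c1 itself varied with the length slope (r = 0.69, rho = 0.56, permutation p = 2e-05, adjusted p = 0.00038). After removal of that slope all 9 targets were negative with Nr3c1, Fkbp5 most (r = -0.79). Zbtb16 and Errfi1 turned from 0.19 and 0.14 to -0.44 and -0.47. With the length slope as a covariate, the slopes on Nr3c1 were -1.40 for Sgk1, -1.79 for Cdkn1a and -0.93 for Sult1a1. Their adjusted p were 0.026, 0.052 and 0.11 by edgeR, while Fkbp5, Zbtb16 and Errfi1 passed in that fit. Without male Pb 6 the slope of Sgk1 was -0.89 (adjusted p of 0.061 by edgeR). The list mean of the 22 other responsive genes was also negative with Nr3c1 (r = -0.55, rho = -0.59, permutation p = 4e-05, adjusted p = 0.00062). It was not alone: stress peptides and their receptors (r = -0.66, rho = -0.54) and blood markers (r = -0.48, rho = -0.40) were negative too. Their adjusted permutation p were 0.00062 and 0.021. Clock genes were positive (r = 0.40, rho = 0.31, adjusted permutation p of 0.043). These list means were not examined after removal of the length slope.

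Genes around the receptor were followed with lists of 14 partners and hormone-metabolising enzymes, 8 stress peptides and their receptors, 11 immediate early genes and 10 clock genes. Of the 41 tested genes of these lists and the 22 other responsive genes, 0 passed the adjusted threshold in the 6 comparisons with control or in the sex comparison. The unadjusted mark was met by 2 of these 63 genes in Mn females, 2 in Pb females and 3 in Pb+Mn females. The shares of all genes were 2.62%, 2.18% and 1.64%. In Mn males 1 and in Pb+Mn males 3 met it, against 2.25% and 2.93% of all genes. Between the sexes 8 did, against 7.45%. At an unadjusted p under 0.05, Angptl4, an inhibitor of lipoprotein lipase, was lower in all 3 exposed groups of females (-0.64 ± 0.25 for Mn, -0.70 ± 0.25 for Pb, -0.75 ± 0.25 for Pb+Mn), which share their controls. Arrdc2 was lower in Mn and Pb+Mn females (-0.61 ± 0.26 and -0.57 ± 0.26), and all 22 responsive genes lay below 0 in Pb+Mn females, with a median of -0.20. Without female control 3 the values of Angptl4 were -0.62, -0.68 and -0.75, those of Arrdc2 -0.43 and -0.42, and 2 of the 22 lay above 0. Crhbp, which binds corticotropin-releasing hormone, was higher in Mn males (0.78 ± 0.28) and Pb females (0.61 ± 0.27, or 0.82 without female control 3). In Pb males 6 of these 63 genes met the unadjusted mark, under the 12.5% of all genes given above. Higher there were the receptor's partners Bag1 (0.39 ± 0.13) and Ptges3 (0.19 ± 0.09), the vasopressin gene Avp (1.51 ± 0.66) and the clock gene Npas2 (0.35 ± 0.14), and lower were Bcl6 (-0.36 ± 0.15) and Klf9 (-0.28 ± 0.14). Most genes of 2 of these lists went the other way: only 4 of 13 tested partners and enzymes and 3 of 10 clock genes lay above 0. Their medians were -0.08 and -0.04. All 7 tested stress peptides and receptors lay above 0 (median 0.35), and 6 of the 22 responsive genes did (median -0.13). Egr2 was higher in Pb+Mn males (0.88 ± 0.35), where all 11 immediate early genes lay above 0, with a median of 0.39. Per2, a clock gene, was higher in females than males (0.28 ± 0.10). The smallest adjusted p among these genes was 0.34 by edgeR.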

How the data were processed

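Hippocampal RNA of 48 mice was sequenced, and 1 table of raw counts per gene was deposited. Per the submitters' processing notes, the authors used Trim Galore 0.6.9, STAR 2.7.10b and featureCounts 2.0.6 with build GRCm39 to make these counts, and the notes also name R 4.4.2, limma and edgeR. Whether strand was used in counting is not stated, so reads of overlapping genes may be mixed. Symbols were matched for 51884 of 57126 identifiers.

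Counts were analysed with edgeR 4.0.16 (R 4.3.3): filterByExpr, TMM scaling, a quasi-likelihood fit of all 8 groups and Benjamini-Hochberg adjustment over 16360 genes at 0.05. CPM values were computed from the counts, with a prior count of 2 on the log2 scale. Slopes on Fkbp5, Nr3c1 or Tsc22d3 were fitted with group terms, and pair correlations tested by 100000 permutations within groups (SciPy 1.17.1). limma 3.58.1 and DESeq2 1.42.0 were alternatives. The scripts were tested on simulated data.

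The members and lists were chosen with earlier results of these data known. Named were all 10 members, of each other list any gene past the threshold and otherwise up to 3 of smallest p per comparison with control or between sexes, and the 10 genes most like Fkbp5 or the mean of the targets. Genes followed on Tsc22d3, Klf9 and Bcl6 included, were named after their values were seen. 1 gene that this rule names is not reported here. In no comparison did all 6 pairs of same-numbered animals correlate above 0.1 (at most 3 did), so replicate numbers were not treated as pairs.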

Additional observations from a re-analysis of the deposited data

Results flagged for a closer look

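In each gene and group of 6, the highest and lowest animal was compared with its nearest neighbour, relative to the range of the group. Of 80 such groups 8 held an animal past Dixon's 95% critical value, and chance alone flags about 1 in 20. Nr3c1 was low in male control 1, at 68.5 CPM with the next animal at 87.5. Sgk1 was high in male Pb 6, at 138 CPM against 81.6 for the next. Zbtb16 was low in male Pb+Mn 6, at 58.6 CPM against 67.7. Errfi1 was low in female Pb 2, at 31.5 CPM against 60.8, an animal that also had a low length slope. Pdk4 was high in male Pb 1, at 37.9 CPM against 21.4. Plin4 and Sult1a1 were both high in female Pb+Mn 3, at 15.3 against 6.39 CPM and at 12.7 against 8.34 CPM. Sult1a1 was high in male Pb 4, at 13.5 CPM against 10.2.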

How the results depend on the processing

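Of 10640 values of the 190 fold changes under other settings, 10336 kept direction and call and 302 changed sign. Of those 302, 1 had been larger than its SE: Fkbp5 in Pb females was 0.00063 with limma voom. For Pb+Mn against Pb males, 1 member passed at a threshold of 0.10, and leaving out 1 library gave 0 to 1. Members following Nr3c1 were 5 at a threshold of 0.10 and 5 with limma voom, and 2 to 5 with 1 library left out (5 without male Mn 5). With the length slope in the fit, the slopes on Nr3c1 were -0.56 for Zbtb16 and -0.58 for Errfi1, and the correlations -0.44 and -0.47. With the hippocampal neuron markers removed, r of Fkbp5 and Tsc22d3 was 0.43. The cause of these shifts was not tested. With a replicate block, the median r of the 45 pairs was 0.26 in place of 0.32, 0 members passed in any comparison, and 2, 2 and 5 followed Fkbp5, Nr3c1 and Tsc22d3. Over all genes, Pb+Mn against Pb males gave 471 genes with limma voom and 326 with DESeq2 in place of 0, and 1479, 1545 and 1390 without male Pb 2, male Pb 5 and female Pb 2. Sex gave 72 with limma voom in place of 17, and Pb over both sexes 33 with DESeq2 in place of 0. Genes following Nr3c1 were 5853, or 1316 with the length slope, 3420 with limma voom and 3314 without male Pb 6, and those following Fkbp5 5953, or 2799 without female Pb 2. Those following Tsc22d3 were 550 without the filter on low counts, 3491 with the replicate block, 3555 with limma voom and 2581 with DESeq2. Plin4, Cdkn1a and Sult1a1 had as few as 25, 34 and 38 counts in a library, which limits their precision.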
